A study of Homo sapiens with 7 samples.

Results

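The genes described here carry out DNA replication and entry into S phase. The 49 members were taken by gene name, under a rule that uses no measured value, though the list was drawn up with earlier results of these data known. All 49 were found among the 60666 gene identifiers of the count table and passed the filter on low counts that left 18281 genes for testing. RNA was sequenced in bulk from 7 libraries labelled RPMI 8226, an established human line derived from multiple myeloma, the malignancy of plasma cells that secrete antibody. The labels assign 2 libraries to cells with HDAC6 knocked out (KO), 3 from cells whose HDAC6 carries a change of 2 residues in its ZnF-UBP domain that removes ubiquitin binding (RY), and 2 from wild-type cells (WT). KO and RY were both made by CRISPR-Cas9 editing, and the labels name no drug treatment and do not say whether the edited lines are single clones or whether replicates were separate cultures. The p-values therefore reflect how much these libraries scatter, which could be technical variation, and an effect of the edit cannot be told apart from other differences between the lines.

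A cell prepares its replication origins in G1 phase, when CDC6 and CDT1 load the ring-shaped MCM2 to MCM7 complex on DNA. At S phase entry, cyclin E with its kinase, together with the CDC7 kinase, switches the loaded rings into active helicases by adding CDC45 and the GINS complex. The clamp PCNA is then placed on DNA by the RFC loader and holds the polymerases, while thymidylate and ribonucleotide enzymes supply nucleotides and CHAF1A, CHAF1B and UHRF1 restore chromatin behind the fork. Many of these genes are known targets of E2F transcription factors and are transcribed together as cells leave G1.

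HDAC6, the edited gene (chrX:48801377-48824982, GRCh38), had 19.0 and 12.8 CPM in KO libraries, 90.4, 110 and 96.5 CPM in the libraries labelled RY, and 57.2 and 77.3 CPM in WT libraries. CPM, the abundance unit used throughout, is the read count scaled to a common library size after TMM normalization. The KO libraries were the lowest, at -2.08 ± 0.21 against WT on the log2 scale (SE, adjusted p = 0.000229 by edgeR's quasi-likelihood test). Of the 130 protein-coding genes tested between the end of the X short arm and HDAC6, 121 had a negative log2 fold change in KO. The median over the 130 was -0.97, and the part of this stretch in the HDAC6 value was not tested. HDAC6 in RY was 0.56 ± 0.18 higher than in WT on the log2 scale (adjusted p = 0.0214), under the 2-fold limit. That adjusted p was 0.0890 without RY replicate 2, 0.0768 without WT replicate 1 and 0.0588 with a replicate block.

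The libraries labelled RY stood apart from the rest of the series. Across tested genes, log2 CPM correlated at 0.682 to 0.753 between a library labelled RY and any KO or WT library, against 0.946 to 0.958 between KO and WT. Of 14 plasma cell markers, 7 were under 1 CPM in every library labelled RY, SDC1 and IRF4 among them, against 1 of 14 in both KO and WT (CD27). Their summed level was 408 to 441 CPM in RY, against 5602 to 6615 CPM in KO and 8221 to 9675 CPM in WT. The summed level of 13 myeloid precursor markers was 86.2 to 91.4 CPM in KO, 1384 to 1571 CPM in RY and 173 to 210 CPM in WT, with ELANE, PRTN3, LYZ and CD14 under 1 CPM in every library of all groups. The 6 epithelial markers summed to 143 to 145 CPM in KO, 0.050 to 0.333 CPM in RY and 177 to 182 CPM in WT. The 15 T cell and early lymphoid markers summed to 603 to 701 CPM in KO, 260 to 272 CPM in RY and 440 to 470 CPM in WT. The sum hides both directions: of 9 tested, 4 were positive and 5 negative in RY against WT (log2 -17.0 to 5.69). DNTT and RAG2 were under 1 CPM in KO and WT but not in RY, and CD8A, CD8B and ZAP70 in RY alone. The libraries labelled RY thus go against the plasma cell label, and every comparison with RY below includes that difference in cell markers, whose part in the results was not tested. Library totals ran from 31368968 to 42813888 counted reads. The fewest reads for any member in any library were 340 (CCNE1), a counting error of 5.42%, which is as large as the spread between replicates of some members in KO and RY.

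The 49 genes moved together between replicates of the same group. WT replicate 1 was above WT replicate 2 in 47 of 49 members (95.9%), with a median difference of 1.38-fold, whereas over all 18281 tested genes replicate 1 was the higher in 45.1%. The helicase activator MCM10 differed most, with 101 and 49.1 CPM in WT replicates 1 and 2, a log2 difference of 1.04 (pseudocount 0.5 CPM). RRM2, the regulated subunit of ribonucleotide reductase, had 328 and 175 CPM, and the repressor E2F8 differed by 0.90 on the log2 scale. Only RFC1 and RPA3 ran the other way. KO replicate 2 was likewise above KO replicate 1 in 44 of 49 members, by a median of 1.13-fold, against 47.8% of all tested genes. In RY, replicate 1 was above replicate 2 in 42 of 49, by a median of 1.10-fold. The median coefficient of variation of a member was 8.78% in KO, 5.07% in RY and 23.0% in WT, against 10.6%, 8.04% and 16.1% over all tested genes in the same groups. The members thus varied less than the median gene in KO and RY, and more than the median gene in WT. The comparison was not matched for abundance. Every member had at least 340 reads in each library, whereas the filter admitted genes from a minimum count of 10. The part of abundance in the lower values of KO and RY was not tested.

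**Figure D1:**
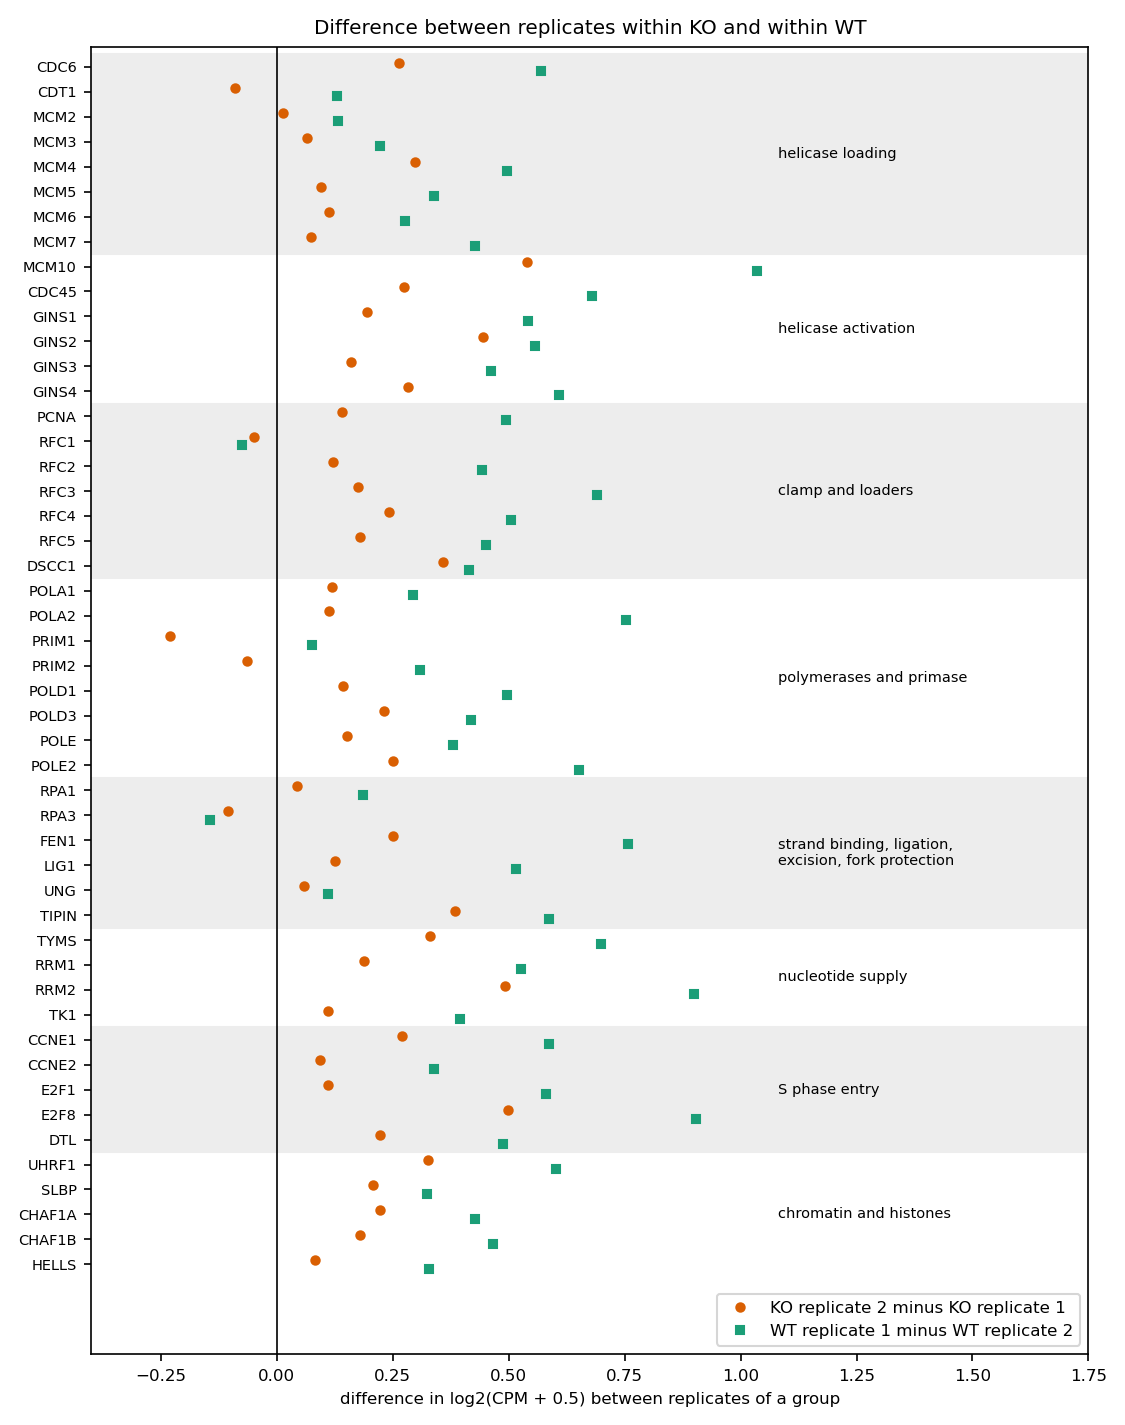
Difference between replicates for each of the 49 genes, in log2(CPM + 0.5). Circles are KO replicate 2 minus KO replicate 1 and squares are WT replicate 1 minus WT replicate 2, and shaded bands separate the roles. Nearly all points lie right of 0, 44 of 49 in KO and 47 of 49 in WT, and the WT differences reach 1.04 for MCM10.

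The split between WT libraries ran through every role. It was widest in nucleotide supply (TYMS, RRM1, RRM2 and TK1, a median log2 difference of 0.61), in helicase activation (MCM10, CDC45 and the 4 GINS genes, 0.58) and in the 5 S phase entry regulators (0.58), and narrowest in helicase loading (0.31). Of the other 42 replication factors, 40 were also higher in WT replicate 1, and so were 34 of 35 G2/M genes, which act in mitosis and its preparation. The 30 tested replication-dependent histone genes, which supply histones in S phase, ran in the opposite direction. WT replicate 1 was higher in 6 of them, with a median log2 difference of -0.50. These genes lay near the floor: the 51 listed had medians of 0.111 and 0.224 CPM in WT replicates 1 and 2. How well the libraries captured histone mRNAs is not known. Among tested cell markers, WT replicate 1 was higher in 2 of 13 plasma cell markers (median log2 difference -0.47), 1 of 9 T cell and early lymphoid markers (-0.55) and 1 of 5 epithelial markers (-0.50). It was higher in 4 of 12 myeloid markers (-0.05, against -0.04 over all tested genes). Their log2 differences ran from -1.32 to 0.22, and 6 of the 13 listed were under 1 CPM in WT, which pulls the median toward 0. The part of these markers in the WT difference was not tested.

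No replication gene passed the test for a 2-fold change in KO. Of 49 members, 0 passed an adjusted p of 0.05 with a fold of at least 2 in KO against WT, where 10.9% of all tested genes did (3.3% higher and 7.64% lower), and DESeq2 called 0 as well. On adjusted p alone 2 members passed (1 higher and 1 lower, background 16% in all, 5.32% higher and 10.7% lower), and 5 had an unadjusted p under 0.05 (background 27.5%). The members' median log2 fold change was 0.12, against -0.01 over all genes, and 34 of 49 had a positive value. For 42 of 49 members the KO and WT means differed by less than the WT libraries did from each other, against 52.9% of all tested genes. Groups did not overlap for 10 of 49 members, 8 higher and 2 lower in KO, against 48.7% of all tested genes.

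The value of KO against WT therefore hung on the WT library used. Without WT replicate 1, 47 of 49 members had a positive log2 fold change, the median was 0.36 and 22 passed on adjusted p alone, 21 higher and 1 lower in KO, against 21.9% of all genes tested in that fit. Without WT replicate 2, 38 of 49 were negative, the median was -0.12 and 5 passed, 2 higher and 3 lower, against 18.7%. In both cases the lone WT library was assumed to vary like the other groups. POLA1 was the only member called at 2-fold in either case, as lower in KO without WT replicate 2.

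POLA1, the catalytic subunit of the polymerase that starts new strands (chrX:24693919-24996986), had 54.3 and 59.0 CPM in KO, 116, 101 and 103 CPM in RY, and 113 and 92.2 CPM in WT. Both KO libraries lay below every other library. The log2 fold change in KO was -0.86 ± 0.12 (SE) at an adjusted p of 0.00168, with adjusted p of at most 0.0192 under every alternative run. POLA1 lies on the short arm of X between its end and HDAC6, and 121 of the 130 protein-coding genes tested in that stretch had a negative log2 fold change in KO, with a median of -0.97. The part of this stretch in the POLA1 value was not tested. UNG, which removes uracil from DNA, was the other member to pass. It had 98.6 and 103 CPM in KO, 125, 113 and 121 CPM in RY, and 76.3 and 70.6 CPM in WT, with a log2 fold change of 0.45 ± 0.10 in KO against WT (adjusted p = 0.0116). Its adjusted p ran from 0.00136 to 0.102 over the alternatives, and exceeded 0.05 without either KO library, with only the 2 groups compared and with a replicate block. The partners of POLA1 had log2 fold changes of -0.02 ± 0.22 for POLA2, 0.14 ± 0.12 for PRIM1 and 0.14 ± 0.14 for PRIM2, and none passed on adjusted p.

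**Figure D2:**
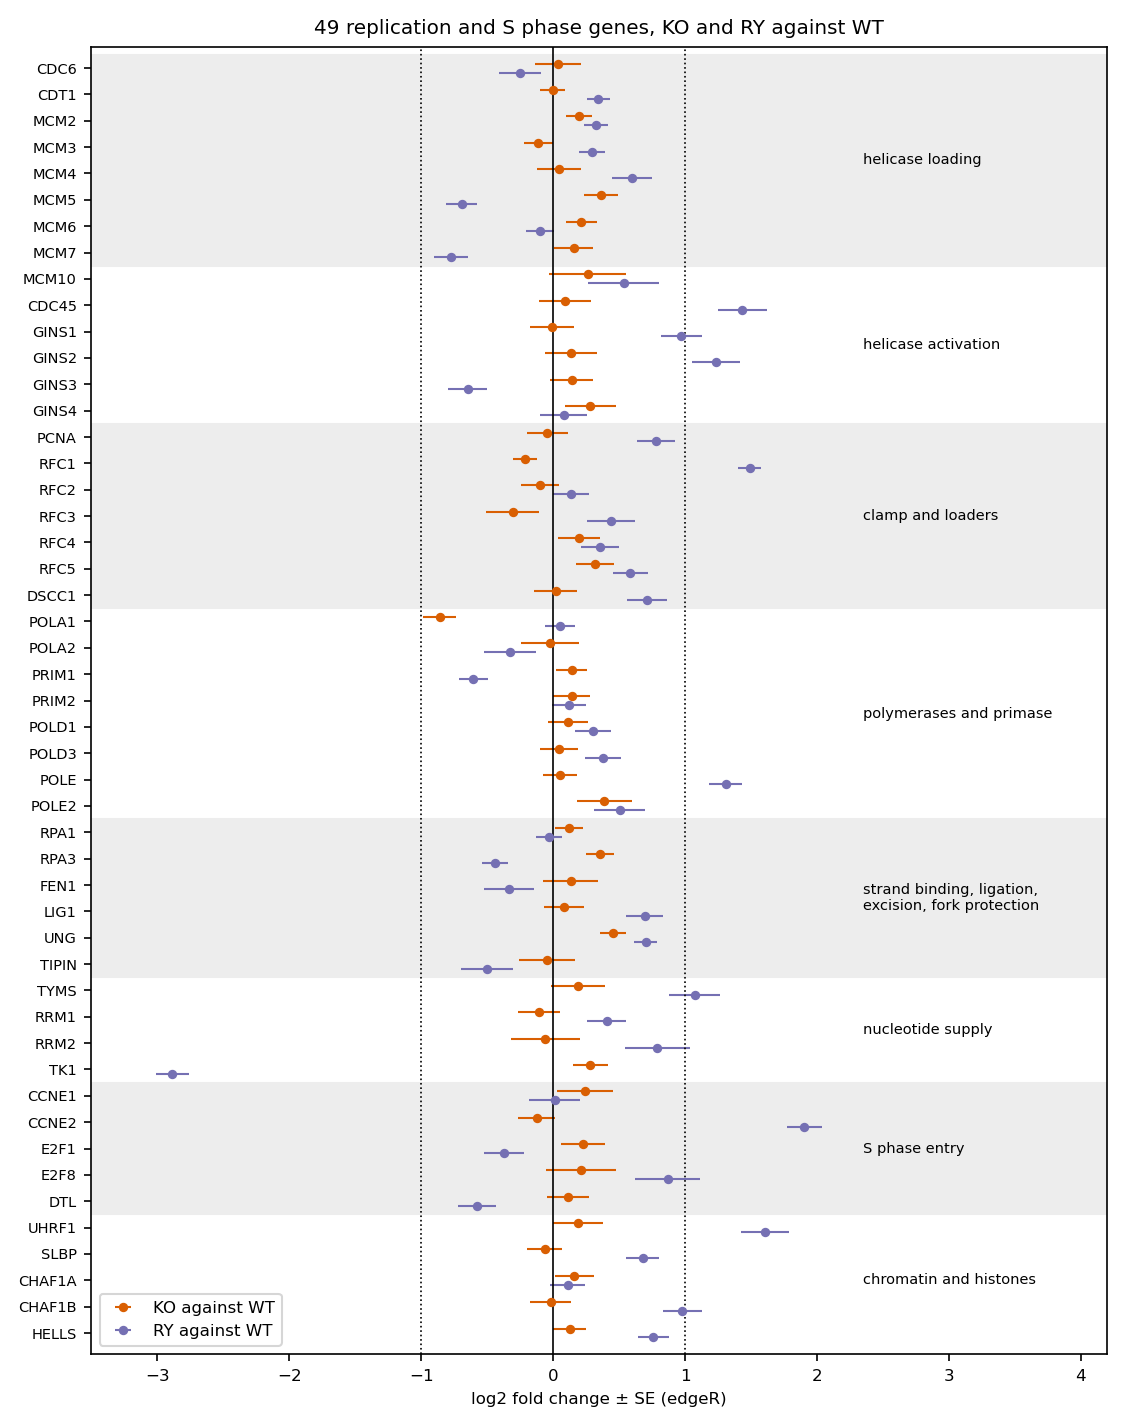
Log2 fold change against WT with its standard error (edgeR) for the 49 genes, ordered by role. KO is the upper point and RY the lower point of each gene, and dotted lines mark 2-fold. KO points lie between -0.31 and 0.45 apart from POLA1 at -0.86, while RY points range from TK1 at -2.89 to CCNE2 at 1.91.

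In the libraries labelled RY, 8 of 49 members changed against WT, 7 higher and 1 lower. That is 16.3% of the members, against 49.1% of all tested genes (23.7% higher and 25.4% lower). The count was 14 of 49 without WT replicate 1, against 47.6% of all genes tested in that fit, and 6 of 49 without WT replicate 2, against 47.1%. On adjusted p alone 33 of 49 passed, 25 higher and 8 lower, against 72.4% of all tested genes (35.3% higher and 37.1% lower), and the groups did not overlap for 38 of 49, 29 higher and 9 lower, against 81.7%. Of the 33, 27 also passed in the same direction with either WT library left out, and MCM2, MCM3, POLD3, POLE2 and RRM1 did not pass without WT replicate 2, nor TIPIN without WT replicate 1. The members' median log2 fold change was 0.36, compared with -0.03 over all genes (0.60 without WT replicate 1 and 0.16 without WT replicate 2), and the members' median absolute value was 0.57, compared with 1.04. Scaling by library size alone in place of TMM moved the median of all genes by 0.19. It called 11 members, 10 higher and 1 lower, against 49.7% of all tested genes. In bulk RNA, more cells in S phase and more RNA per cell cannot be told apart. The authors' deposited table for RY against WT lists 8 of the 49 members among its 9877 genes, and their deposited table for KO against WT lists 0 among 2336.

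The largest change was the fall of TK1, the cytosolic thymidine kinase that salvages thymidine for DNA synthesis (chr17:78174075-78187233). TK1 had 204 and 221 CPM in KO, 25.0, 22.7 and 23.1 CPM in RY, and 199 and 151 CPM in WT. All 3 RY libraries were far below the others, among which WT replicate 2 was the lowest. The level in RY was 7.40-fold lower than in WT, at a log2 fold change of -2.89 ± 0.12 (SE) and an adjusted p of 1.17e-07, and it stayed between -3.08 and -2.68 under every alternative. TYMS, the thymidylate synthase that makes the same nucleotide from dUMP, went the other way (chr18:657604-673578). It had 187 and 235 CPM in KO, 403, 361 and 402 CPM in RY, and 229 and 141 CPM in WT. All RY libraries were above all others, with a log2 fold change of 1.07 ± 0.20 against WT (adjusted p = 0.000950). TYMS fell short of 2-fold at 0.76 without WT replicate 2 and at 0.99 with only RY and WT in the fit. RRM1 and RRM2, the ribonucleotide reductase subunits, were higher in RY at 0.41 ± 0.15 (adjusted p = 0.0326) and 0.79 ± 0.25 (adjusted p = 0.0166), both under 2-fold.

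RFC1, the large subunit of the clamp loader (chr4:39287456-39366375), had 101 and 97.7 CPM in KO, 332, 309 and 331 CPM in RY, and 112 and 118 CPM in WT. It was 2.81-fold higher in RY, at a log2 fold change of 1.49 ± 0.09 (SE) and an adjusted p of 7.37e-07, and was among the few members whose WT libraries lay close together. The small subunits RFC2 to RFC5 had log2 fold changes of 0.14 to 0.59, and only RFC5 passed on adjusted p (0.0034). PCNA, the most abundant clamp or loader gene, had 269 and 297 CPM in KO, 520, 472 and 507 CPM in RY, and 341 and 242 CPM in WT. Its log2 fold change of 0.78 ± 0.14 (adjusted p = 0.00101) was under 2-fold, and reached 1.04 without WT replicate 1. DSCC1, part of an alternative clamp loader, was at 0.71 ± 0.15 (adjusted p = 0.00213).

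POLE, the catalytic subunit of the leading strand polymerase (chr12:132623753-132687365), had 103 and 115 CPM in KO, 258, 267 and 256 CPM in RY, and 119 and 91.3 CPM in WT. Each RY library held more than 2 times the level of any KO or WT library. The log2 fold change against WT was 1.31 ± 0.12 (SE, adjusted p = 1.42e-05). Its partner POLE2 was at 0.50 ± 0.19 (adjusted p = 0.0402) and the lagging strand subunits POLD1 and POLD3 at 0.30 ± 0.14 (adjusted p = 0.0735) and 0.38 ± 0.13 (adjusted p = 0.0293). POLD1 was the most abundant per length of the 8 members in its role. It had 173 and 191 CPM in KO, 207 to 208 CPM in RY, and 197 and 139 CPM in WT. PRIM1, the primase subunit that makes the RNA primer, was lower in RY at -0.60 ± 0.11 (adjusted p = 0.000796), under 2-fold.

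Among helicase activators, CDC45 and GINS2 changed. CDC45, which joins MCM and GINS in the active helicase (chr22:19479459-19520612), had 32.6 and 39.6 CPM in KO, 92.6, 93.4 and 88.6 CPM in RY, and 41.8 and 25.9 CPM in WT. Every RY library held over 2 times the highest KO or WT level, and the log2 fold change against WT was 1.44 ± 0.19 (adjusted p = 0.000119). GINS2 (chr16:85676198-85690073) had 41.2 and 56.2 CPM in KO, 109, 98.0 and 107 CPM in RY, and 52.9 and 35.8 CPM in WT. Its log2 fold change was 1.24 ± 0.18 (adjusted p = 0.000272), and 0.97 without WT replicate 2. GINS1 was at 0.97 ± 0.15 (adjusted p = 0.000396), just under 2-fold, GINS4 at 0.08 ± 0.18, and GINS3 was lower at -0.65 ± 0.15 (adjusted p = 0.0036).

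The regulators CCNE2 and UHRF1 also changed. CCNE2, a cyclin E that drives S phase entry (chr8:94879770-94896678), had 10.5 and 11.2 CPM in KO, 43.4, 42.9 and 46.2 CPM in RY, and 13.2 and 10.4 CPM in WT. KO and WT overlapped, and RY was 3.75-fold higher than WT, the largest increase among the members (log2 fold change 1.91 ± 0.13, SE, adjusted p = 2.06e-06). Its paralog CCNE1 had a log2 fold change of 0.01 ± 0.19. E2F1, an activator of S phase genes, had 88.9 and 96.0 CPM in KO, 61.0, 62.4 and 60.0 CPM in RY, and 94.9 and 63.3 CPM in WT, at a log2 fold change of -0.37 ± 0.15 in RY (adjusted p = 0.0501). That value was -0.05 without WT replicate 1 and -0.64 without WT replicate 2 (adjusted p = 5.43e-05). UHRF1, which keeps DNA methylation on new strands (chr19:4903080-4962154), had 46.0 and 57.9 CPM in KO, 143, 127 and 145 CPM in RY, and 55.0 and 36.1 CPM in WT. The log2 fold change was 1.60 ± 0.18 (adjusted p = 4.91e-05). The other 4 chromatin genes were all positive and under 2-fold in RY, from 0.11 ± 0.13 for CHAF1A to 0.98 ± 0.15 for CHAF1B (adjusted p = 0.000269). SLBP, the histone mRNA binding protein, had 73.7 and 85.2 CPM in KO, 133, 123 and 143 CPM in RY, and 92.4 and 73.8 CPM in WT, at 0.68 ± 0.12 (adjusted p = 0.000962).

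In RY against WT at 2-fold, helicase loading had 0 of 8 members changed (background 49.1%). The group around strand binding, flap removal and ligation had 0 of 6. On adjusted p alone 6 of 8 and 4 of 6 passed (background 72.4%), in both directions. By unadjusted p under 0.05 the numbers were the same (background 74.5%). MCM7, the most abundant loading gene, had 827 and 871 CPM in KO, 472, 413 and 453 CPM in RY, and 874 and 650 CPM in WT, with a log2 fold change of -0.77 ± 0.13 (adjusted p = 0.000581). MCM5 was lower too, at -0.69 ± 0.12 (adjusted p = 0.000582), while MCM4 was higher at 0.60 ± 0.15 (adjusted p = 0.00652). The loaders CDC6 and CDT1 were at -0.25 ± 0.16 (adjusted p = 0.181) and 0.34 ± 0.09 (adjusted p = 0.00647). FEN1, the flap nuclease and the most abundant gene of its group, had 239 and 284 CPM in KO, 197, 179 and 191 CPM in RY, and 300 and 177 CPM in WT. RY overlapped WT for FEN1 (log2 fold change -0.34 ± 0.19, adjusted p = 0.142), and the value was 0.09 without WT replicate 1 and -0.67 without WT replicate 2 (adjusted p = 0.000153). LIG1, the ligase that seals lagging strand fragments, was higher at 0.69 ± 0.14 (adjusted p = 0.00202), and the single-strand binding subunit RPA3 lower at -0.44 ± 0.10 (adjusted p = 0.00269).

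**Figure D3:**
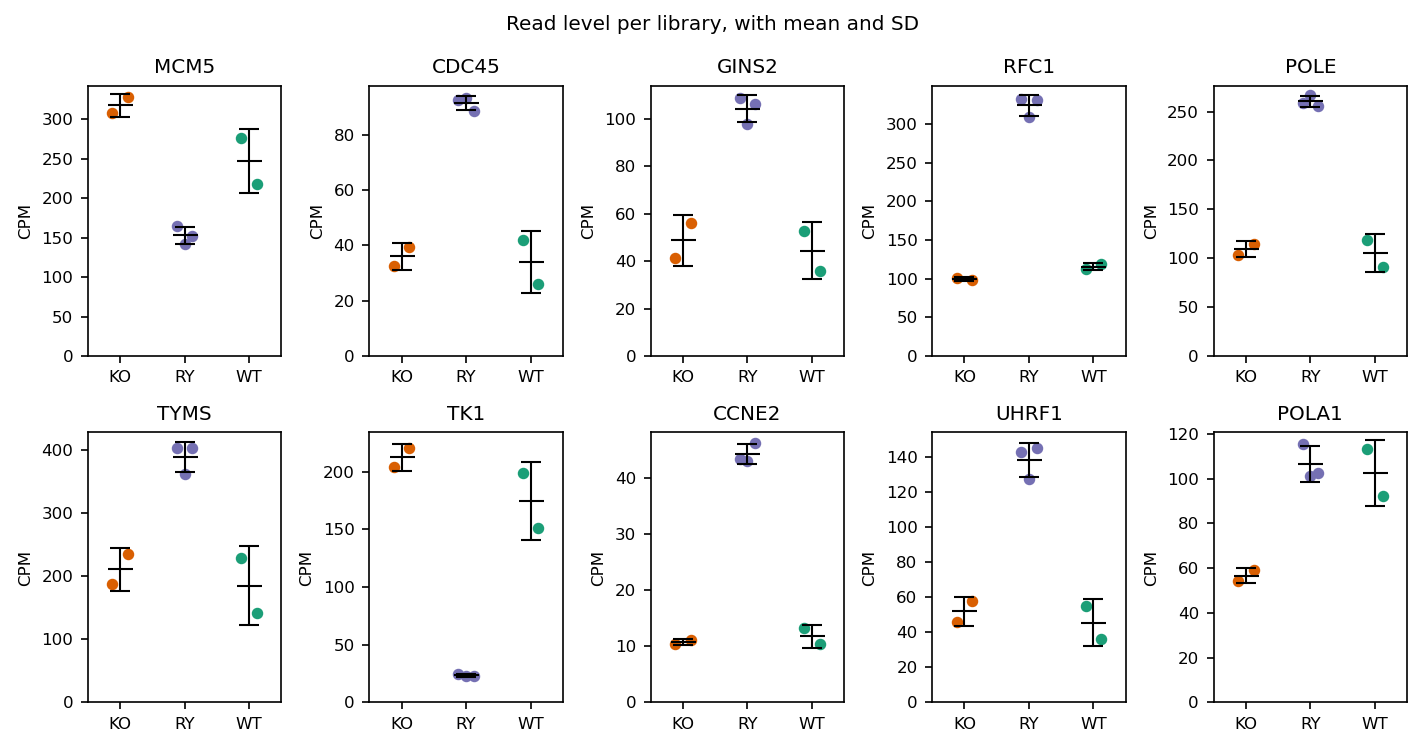
CPM in each library (points) with the group mean and SD (bars) for the 9 members that changed in RY against WT or against KO, and POLA1. RY lies clear of KO and WT in the first 9 panels, lowest for MCM5 and TK1 and highest for the rest, whereas in POLA1 the KO libraries are the lowest.

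In RY against KO, which shares its RY libraries with the comparison above, 8 of 49 members changed, against 50.0% of all tested genes (24.0% higher and 26% lower), with 6 higher (CDC45, GINS2, RFC1, POLE, CCNE2 and UHRF1) and 2 lower (TK1 and MCM5). On adjusted p alone 33 passed, 24 higher and 9 lower, against 73.4% of all tested genes (35.6% higher and 37.8% lower). TK1 was lower in RY than in KO (log2 fold change -3.17 ± 0.13, SE, adjusted p = 5.91e-08). MCM5, a subunit at the gate of the MCM ring (chr22:35400063-35425430), had 308 and 329 CPM in KO, 164, 142 and 152 CPM in RY, and 276 and 218 CPM in WT. KO was the highest and RY the lowest with no overlap, and the log2 fold change of RY against KO was -1.06 ± 0.12 (adjusted p = 3.60e-05), or -0.91 under scaling by library size alone. RFC1 and CCNE2 had log2 fold changes of 1.71 ± 0.09 (adjusted p = 2.74e-07) and 2.03 ± 0.13 (adjusted p = 1.27e-06) against KO. UHRF1 and POLE followed at 1.41 ± 0.18 and 1.25 ± 0.12, and CDC45 was 2.54-fold higher. GINS2 was 2.14-fold higher, with a log2 fold change of 0.88 without KO replicate 1. TYMS, at 0.88 ± 0.19 (adjusted p = 0.00275), was short of 2-fold against KO, and CHAF1B, at 0.998 ± 0.15, lay just short of it.

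Promoters are printed for the 4 changed members with the smallest adjusted p in RY against WT that had an entry in the RefSeq promoter table (GRCh38.p14), to set the gene that fell beside 3 that rose. Each line gives the 250 bases before the start annotated in RefSeq, read 5′ to 3′ along the gene's strand. That start differs from the end of the gene span given above. The windows of TK1, RFC1 and POLE partly overlap those spans, and the window of UHRF1 lies inside its span. Capitals mark matches on either strand to the E2F-type letters TTTCCCGC or TTTGGCGC and to CCAAT, the box bound by NF-Y. TK1 lies at chr17:78187205-78187454 on the minus strand, RFC1 at chr4:39366363-39366612 on the minus strand, POLE at chr12:132687343-132687592 on the minus strand and UHRF1 at chr19:4909251-4909500 on the plus strand.
TK1: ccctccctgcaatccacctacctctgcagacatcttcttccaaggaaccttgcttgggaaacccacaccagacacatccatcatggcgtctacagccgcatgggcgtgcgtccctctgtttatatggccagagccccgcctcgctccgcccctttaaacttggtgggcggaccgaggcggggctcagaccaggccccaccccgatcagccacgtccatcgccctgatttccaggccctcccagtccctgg
RFC1: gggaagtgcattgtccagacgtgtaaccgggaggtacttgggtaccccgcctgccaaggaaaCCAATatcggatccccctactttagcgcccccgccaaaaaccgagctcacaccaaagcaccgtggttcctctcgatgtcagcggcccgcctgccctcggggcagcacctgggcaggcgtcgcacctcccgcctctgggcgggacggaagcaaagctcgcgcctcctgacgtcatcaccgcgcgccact
POLE: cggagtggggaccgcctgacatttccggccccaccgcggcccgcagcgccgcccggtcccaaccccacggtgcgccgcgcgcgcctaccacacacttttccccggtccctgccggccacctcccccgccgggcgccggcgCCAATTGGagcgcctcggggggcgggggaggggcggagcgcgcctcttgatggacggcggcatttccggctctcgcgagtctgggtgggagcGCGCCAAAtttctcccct
UHRF1: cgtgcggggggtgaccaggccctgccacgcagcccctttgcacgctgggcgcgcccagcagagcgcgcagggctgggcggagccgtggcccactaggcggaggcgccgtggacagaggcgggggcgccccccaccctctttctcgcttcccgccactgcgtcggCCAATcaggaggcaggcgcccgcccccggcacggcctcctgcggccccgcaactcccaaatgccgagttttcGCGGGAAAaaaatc
UHRF1 and POLE each held E2F-type letters near the start as well as CCAAT (in POLE 2 CCAAT matches on opposite strands overlap in the capitals CCAATTGG). RFC1 held CCAAT alone, and TK1 held neither.

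Promoter entries were found for 41 of 49 members (missing are CCNE2, DSCC1, E2F8, GINS4, MCM4, MCM5, POLD3 and RPA3). E2F-type letters were present in 15 of the 41 (36.6%), against 536 of 27305 promoters of the same length in the table (1.96%). CCAAT was present in 23 of 41 (56.1%), against 33.0% of all promoters, and TTTGAA, the core letters of the cell cycle homology region, in 1 of 41 (2.44%), against 13.6%. These are letter matches, not sites shown to be bound. Of the 7 members changed in RY with a promoter entry, GINS2, TYMS, POLE and UHRF1 held E2F-type letters and CDC45, RFC1 and TK1 did not.

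Within complexes the balance of subunit transcripts differed in RY. Levels per length were computed as TPM, a scale on which the median of all genes lay 0.37 higher in RY than in WT (log2), so subunits are given as shares of their complex within each library. MCM7 made up 34.9% ± 0.235 of the summed MCM2 to MCM7 TPM in KO (SD, n = 2), 20.6% ± 0.267 in RY (n = 3) and 33.8% ± 1.84 in WT (n = 2). MCM3 was at 20.4% ± 0.229 in KO, 30.4% ± 0.201 in RY and 23.9% ± 1.10 in WT, so that MCM3 led in RY while MCM7 led in KO and WT. MCM5 had the lowest mean share of the 6 in every group, at 7.81% in KO, 4.23% in RY and 6.57% in WT. In WT, MCM7 was 874 and 650 CPM but 35.1% and 32.5% of its complex, so its share differed less between replicates than its CPM, while MCM2, at 384 and 350 CPM, was 13.8% and 15.7%.

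The GINS complex, made of 1 copy each of 4 proteins, showed a similar change of balance. GINS3 made up 16.7% and 15.3% of its TPM in KO, 5.75%, 5.40% and 5.66% in RY, and 15.2% and 16.1% in WT. The ratio of GINS2 to GINS3 was 1.93 and 2.36 in KO, 7.89, 8.22 and 7.86 in RY, and 2.22 and 2.08 in WT. RFC1 made up 12.1% ± 1.19 of the RFC sum in KO, 26.6% ± 0.627 in RY and 14.4% ± 3.48 in WT, where the libraries stood at 11.9% and 16.8%. The ratio of TYMS to TK1 was 0.689 and 0.802 in KO, 12.4 ± 0.601 (SD, n = 3) in RY, and 0.868 and 0.703 in WT. The ratio of CCNE2 to CCNE1 was 0.50 ± 0.0447 in KO, 2.38 ± 0.0862 in RY and 0.652 ± 0.0832 in WT. RY overlapped neither KO nor WT in any of these ratios and shares. In CPM, RY and WT did not overlap for 81.7% of all tested genes. The RFC3 and RFC5 shares, not given above, overlapped between RY and WT. The ratios and shares given were chosen after the fold changes were seen and were not tested.

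**Figure D4:**
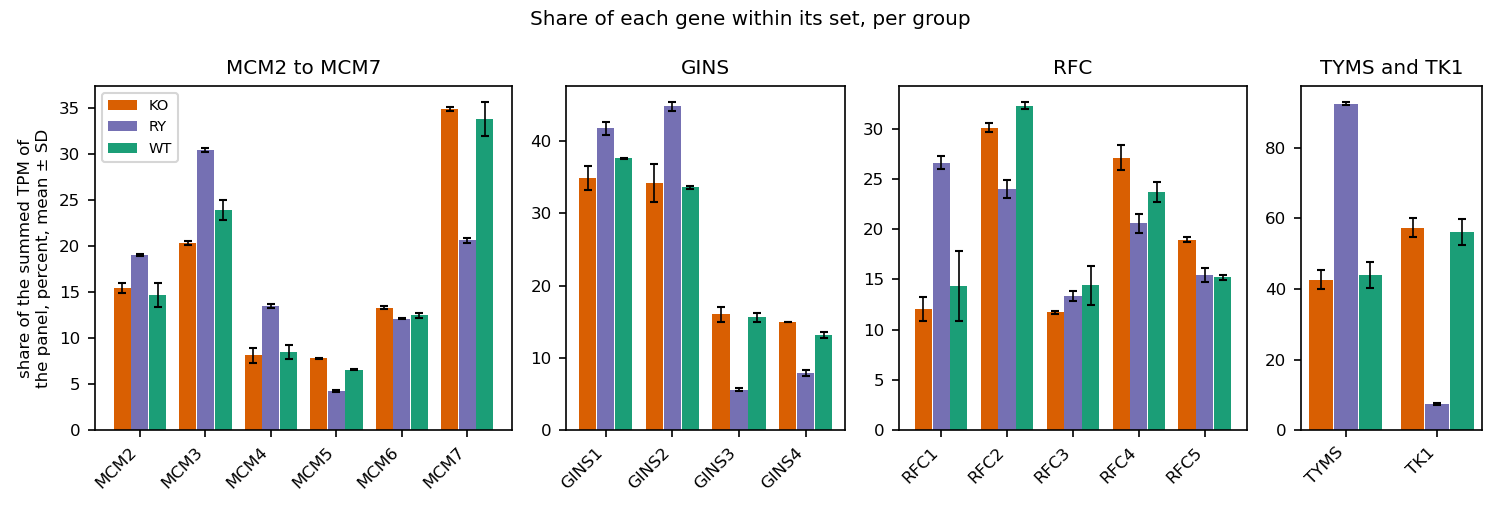
Share of each gene in the summed TPM of its set (percent, mean with SD) for the MCM ring, GINS, RFC and the pair TYMS and TK1, in KO (n = 2), RY (n = 3) and WT (n = 2). RY differs from KO and WT in MCM3, MCM7, GINS3, RFC1 and TK1, and KO and WT lie close together in most bars.

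Of 42 other replication factors, 9 changed in RY against WT, 8 higher and 1 lower (21.4%, against 49.1% of all tested genes). In KO against WT 0 changed (background 10.9%), and 6 had an unadjusted p under 0.05 (background 27.5%). Their median log2 fold change in RY was 0.26, against -0.03 over all tested genes. CDC7, the kinase that fires loaded origins, had 26.2 and 26.7 CPM in KO, 104, 115 and 100 CPM in RY, and 25.2 and 24.0 CPM in WT (log2 fold change in RY 2.11 ± 0.10, SE, adjusted p = 2.08e-07). DBF4, its activating partner and like POLD2 below picked after the values were seen, was at -0.22 ± 0.14 (adjusted p = 0.19). MCM9, a relative of the MCM ring subunits that acts in repair, was 2.82-fold higher (adjusted p = 6.61e-06), and RNASEH2B, a subunit of the enzyme that removes ribonucleotides from DNA, at 1.15 ± 0.10 (adjusted p = 8.46e-06). The gene that fell, POLD2, a subunit of the lagging strand polymerase, had 540 and 584 CPM in KO, 206, 209 and 203 CPM in RY, and 511 and 410 CPM in WT.

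Of 30 genes that control the passage from G1 to S, 8 changed in RY against WT (4 higher, 4 lower) and 2 in KO against WT (both lower). These are 26.7% and 6.67% of the list, against 49.1% and 10.9% of all tested genes, with median log2 fold changes of -0.22 and -0.11. CDKN2C, an inhibitor of CDK4 and CDK6, had 0 and 0.240 CPM in KO, 134, 135 and 139 CPM in RY, and 3.36 and 7.01 CPM in WT. It was lower in KO than in WT at -5.45 ± 0.63 (adjusted p = 0.00046) and higher in RY at 4.71 ± 0.34 (adjusted p = 2.65e-06) on the log2 scale. CDKN2B, a related inhibitor, had 0.984 and 0.960 CPM in KO, 2.40, 2.58 and 2.51 CPM in RY, and 2.14 and 2.41 CPM in WT (-1.22 ± 0.26 in KO against WT, adjusted p = 0.0114). CDKN1C, another inhibitor of cyclin-dependent kinases, had 17.5 and 13.6 CPM in KO, 0.400, 0.385 and 0.665 CPM in RY, and 10.4 and 12.6 CPM in WT (-4.59 ± 0.25 in RY, adjusted p = 4.73e-07). CCND3, a D cyclin, and its kinase CDK6 were higher in RY at 1.58 ± 0.11 (adjusted p = 1.75e-06) and 1.48 ± 0.10 (adjusted p = 2.08e-06). The WT level of CDKN2C lay between KO and RY, at 2.47% and 5.15% of the RY mean in WT replicates 1 and 2.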

How the data were processed

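Per the labels' protocols, RNA came from a kit for total RNA and libraries from a stranded TruSeq kit, and samples were grouped and numbered by their titles. Raw read counts for each Ensembl gene were deposited by the authors without normalization. The submitters' processing notes list GRCh38, HTSeq 0.9.1, STAR 2.7.4, edgeR 1.34.1 and FastQC, without roles. For the counting, annotation release and strand setting are not given in the sources used here. Exons of 17 members overlap a gene on the opposite strand (TYMS, GINS2, CCNE2 and MCM7 among them), those of 9 overlap a gene on the same strand, and 9 have a pseudogene named after them, so these counts are uncertain. The authors' deposited comparison tables hold, for each gene, p-values raw and adjusted, an F score, and log2 values of fold and mean CPM. Only the number of members they list was used.

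Counts were tested with edgeR 4.0.16 (quasi-likelihood test, R 4.3.3) over the 7 libraries together, with a term per group, TMM scaling (factors 0.932 to 1.09), filterByExpr at a minimum count of 10 and Benjamini-Hochberg adjustment over 18281 genes. Changed means a fold of at least 2 at an adjusted p under 0.05, the rule of the authors' deposited tables. The fit was run on simulated data with known changes in a small part of the genes. That run cannot show how the fit behaves where 49.1% of tested genes are called, as in RY against WT. TPM used exon lengths of GENCODE release 29, and promoters are from RefSeq. Members and lists were chosen with earlier results of these data known. Named in full are HDAC6, called members by adjusted p, the most abundant member of each role by TPM, and up to 3 called genes of each related list. Other members are named by value. DESeq2 1.42.0, other scalings, no filter, fits of the 2 groups alone, replicate blocks and leaving out each library were tried as alternatives. Replicate numbers were not treated as pairing samples in the main fit. Deviations of same-numbered libraries correlated at -0.30 for KO and WT, -0.0493 and -0.127 for KO and RY, and 0.0768 and 0.133 for RY and WT. With so few libraries these values cannot settle whether the numbers pair samples. Library totals of 31368968 to 42813888 counted reads give a counting error of 5.42% for the member with the fewest reads.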

Additional observations from a re-analysis of the deposited data

How the results depend on the processing

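Direction held for every named member in the comparison where it changed, under every alternative run. On adjusted p alone, 2 members passed in KO against WT (1 higher, 1 lower), 33 in RY against WT (25 higher, 8 lower) and 33 in RY against KO (24 higher, 9 lower). The shares of all tested genes were 16%, 72.4% and 73.4%. Leaving out each library in turn gave 0 to 1 changed members in KO against WT (0 to 1 lower), 6 to 14 in RY against WT (5 to 13 higher) and 7 to 11 in RY against KO. Without WT replicate 1, CHAF1B, E2F8, GINS1, MCM10, PCNA and RRM2 joined the members higher in RY than in WT, and without WT replicate 2 GINS2 and TYMS left them. Leaving out any RY library gave 8 changed members in RY against WT and 8 in RY against KO. The shares of all tested genes in those fits were 47.7% to 47.9% and 48.6% to 49.1%. In the main fit 10.9% of all tested genes changed in KO against WT, 49.1% in RY against WT and 50.0% in RY against KO. Every count that left its main value came from a fit with 1 KO or WT library, assumed to vary like the other groups. Scaling by library size alone called 10 higher and 1 lower in RY against KO, against 50.3% of all tested genes. All genes shifted there by 0.14 (log2), and the causes of these moves were not tested. With the replicate block the counts stayed at 0, 8 and 8, against 8.56%, 46.2% and 47% of all tested genes. On adjusted p alone they were 1, 27 and 28, against 9.95%, 61.5% and 62.6%. Same-numbered KO and WT libraries deviated in opposite directions. With the WT numbers crossed, chosen after seeing the data, the counts were again 0, 8 and 8, against 9.98%, 47.3% and 48.3% of all tested genes. Sign changes under other scalings touched only members within 0.10 of 0. With 2 libraries in KO and WT, small differences could not be resolved.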

Other observations

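Replication-dependent histone genes, whose mRNAs are made in S phase, had a median log2 fold change of -0.45 in the libraries labelled RY against WT, where the 49 members had 0.36, and 0.15 in KO against WT, where the members had 0.12. They lay near the floor, with list medians of 0.11 to 0.38 CPM in every library. Of 51 listed, 30 passed the filter, and 12 changed in RY against WT, 5 higher and 7 lower (40% of those tested, against 49.1% of all tested genes). In KO against WT 0 changed by edgeR (background 10.9%), and 1 had an unadjusted p under 0.05 (background 27.5%). Their summed level was 84.9 and 71.2 CPM in KO, 49.3, 38.2 and 37.6 CPM in RY, and 44.5 and 92.8 CPM in WT. The WT library with the lower replication genes was the one with the higher histone sum. How well these libraries captured histone mRNAs is not known, and the cause of that difference was not tested. H3C8, with the smallest adjusted p, had 1.29 and 1.20 CPM in KO, 0, 0.0722 and 0.0605 CPM in RY, and 0.805 and 0.696 CPM in WT (log2 fold change in RY against WT -4.00 ± 0.60, SE, adjusted p = 0.000281 by edgeR). H2BC15 and H2BC8 were lower in RY at -2.92 ± 0.48 and -3.29 ± 0.59.

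Of 35 G2/M genes, 6 changed in RY against WT, 5 higher and 1 lower (17.1%, against 49.1% of all tested genes), and 1 changed in KO against WT (2.86%, against 10.9%). MKI67, the proliferation marker, had 203 and 281 CPM in KO, 1519, 1354 and 1368 CPM in RY, and 368 and 255 CPM in WT (2.18 ± 0.19 in RY against WT on the log2 scale, adjusted p = 9.41e-06 by edgeR). TTK, a spindle checkpoint kinase, had 34.3 and 43.9 CPM in KO, 107, 103 and 102 CPM in RY, and 48.2 and 36.5 CPM in WT. UBE2C, the ubiquitin-conjugating enzyme of the anaphase-promoting complex, had 0.141 and 0.180 CPM in KO, 42.3, 44.3 and 44.6 CPM in RY, and 5.22 and 4.92 CPM in WT. It was the G2/M gene that changed in KO, at -4.96 ± 0.21 (adjusted p = 5.22e-06). Like CDKN2C it was low in KO and had 11.9% and 11.3% of its RY mean in WT replicates 1 and 2. The markers MPO and CD4, picked after the values were seen, were also lowest in KO and highest in RY. Unlike UBE2C, both had a higher level in WT replicate 2 than in WT replicate 1. MPO had 4.24% and 7.79% of its RY mean in WT, and 0.00861% and 0.358% in KO. CD4 had 3.85% and 8.43% in WT, and 0.672% and 0.642% in KO. Of 12 tested myeloid markers, 11 had a negative log2 fold change in KO against WT and 1 a positive one. Of 9 tested T cell and early lymphoid markers, the list that holds CD4, 5 were negative and 4 positive. Whether CDKN2C and UBE2C share a source with MPO, CD4 or the myeloid markers was not tested.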
